A study of Mus musculus with 4 samples.

Results

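Complement is a set of plasma and tissue proteins that mark microbes, immune complexes and dying cells for removal. Expression of 8 mouse genes of this system was followed here in the seminal vesicle: C1qa, C1qb, C1qc, C3, C4b, Cfb, Cfd and Serping1. Members were chosen by gene symbol, as all probe sets whose platform annotation names one of these genes. Of the 8 genes, 5 had probe sets annotated to them alone (C1qa, C1qb, C1qc, Cfb and Serping1), with 7 probe sets among the 12422 of the array and 5 of its 8251 named genes. C4b was annotated only together with C4a, on 2 probe sets, and these were not assigned to either gene. C3 and Cfd were not analysed here.

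All 4 arrays came from 1 group, C57Bl/6J mice of genotype Nkx3.1 +/+, 15 months old, with 1 seminal vesicle RNA per Affymetrix Mu74AV2 array. The gland makes most of the fluid of the ejaculate. Since the group carries no mutation or treatment, no condition was compared, and the data bear on which of these genes gave signal and on how far the mice lay apart. Numbers 1 to 4 follow the deposited columns and serve only as names of the mice. Each value is the log2 expression of a probe set. In whole tissue, fewer cells of a type and less RNA per cell cannot be told apart.

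The classical pathway starts when C1q, a protein built from the products of C1qa, C1qb and C1qc, binds antibody or an altered surface and activates the proteases C1r and C1s. These cut C4 and C2, and the product cleaves C3, the point at which all pathways meet. In the alternative pathway factor B, encoded by Cfb, is cut by factor D, encoded by Cfd, and forms the enzyme that amplifies C3 cleavage. Serping1 encodes C1 inhibitor, a serpin that blocks C1r and C1s. Most plasma complement is made in the liver, whereas C1q in tissues is made mainly by macrophages and dendritic cells, and fibroblasts and epithelium can make C1 inhibitor, C1r and factor B.

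In RefSeq's table for GRCm38.p6, C1qb, C1qc and C1qa are neighbours on chromosome 4 with 0 other genes between them, and Cfb and C2 are neighbours among protein-coding genes on chromosome 17, with 1 other gene listed between them. The promoters of C1qb and C1qc are shown because, of the measured genes, only these 2 had a full window in the promoter table used. No window was found for C1qa, Cfb or Serping1. Each runs from 250 bases before to 50 bases after the transcription start and is written 5′ to 3′ on the gene's strand, which is the minus strand in both cases. Capitals mark GAGGAA or its complement on the other strand, the core letters bound by the myeloid factor PU.1 and by other ETS factors. The sequences are RefSeq's.
C1qb, chr4:136886151-136886450, GRCm38.p6: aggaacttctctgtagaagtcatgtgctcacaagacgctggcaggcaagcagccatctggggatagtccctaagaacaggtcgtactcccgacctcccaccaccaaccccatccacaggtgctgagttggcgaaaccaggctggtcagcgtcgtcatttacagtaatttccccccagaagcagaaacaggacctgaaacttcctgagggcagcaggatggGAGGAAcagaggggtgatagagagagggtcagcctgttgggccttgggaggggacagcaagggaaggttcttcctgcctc
C1qc, chr4:136892865-136893164, GRCm38.p6: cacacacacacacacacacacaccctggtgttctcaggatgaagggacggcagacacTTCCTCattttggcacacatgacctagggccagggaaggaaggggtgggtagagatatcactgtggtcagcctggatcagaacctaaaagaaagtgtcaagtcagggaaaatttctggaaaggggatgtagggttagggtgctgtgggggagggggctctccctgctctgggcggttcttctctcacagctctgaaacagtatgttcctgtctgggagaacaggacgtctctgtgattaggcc
The C1qb window holds 1 match, at bases -30 to -25 from the start, on the gene's strand. That of C1qc also holds 1, at bases -193 to -188, on the opposite strand. The motif is common, in 28.3% of the 32851 promoter windows of the table, so these matches are a description only. Neither window held TATAAA (found in 13.6% of all windows) or TTGCNNAA, a C/EBP form (10.8%), searched on both strands. The motifs were picked with the expression values known.

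Signal above a background limit was obtained on all arrays for C1qa, C1qc and Serping1, in part of the mice for C1qb, and on no array for Cfb. A probe set was taken as above the background range when it exceeded, on each array, the 90th percentile of a reference group: 121 probe sets reading 95 genes typical of brain, pancreas, eye and further organs. That limit was 6.11, 5.92, 6.02 and 6.16 on arrays 1 to 4. Of the 5 measured genes, 3 were above the range on all 4 arrays (C1qa, C1qc and Serping1, each by 1 of the 7 probe sets), beside 30.0% of all 8251 genes and 24.6% of all probe sets. C1qb exceeded it in 3 mice and Cfb in 0. A value under the limit is no evidence that a gene is silent and values of unlike probe sets say nothing on which gene is more abundant.

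C1qa, the gene of the A chain, had values of 6.63, 6.70, 6.97 and 6.44 in mice 1 to 4, a mean of 6.68 ± 0.22 (SD, n = 4). Mouse 3 was the highest and mouse 4 the lowest, 0.53 log2 units or 1.45-fold apart. Its smallest margin over the background limit was 0.27, in mouse 4. With the limit at the 95th percentile of the reference group, 6.64 in mouse 4, C1qa was no longer above the range.

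C1qc, the C chain gene, had 7.68, 7.59, 7.86 and 7.43 in mice 1 to 4, with a mean of 7.64 ± 0.18 (SD, n = 4). Again mouse 3 was highest and mouse 4 lowest, 0.43 log2 units or 1.35-fold apart, while mice 1 and 2 lay between them. Every mouse was at least 1.27 above the limit.

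C1qb, which encodes the B chain, had 6.20, 6.32, 6.60 and 5.73 on its brighter probe set, a mean of 6.21 ± 0.36 (SD, n = 4). The spread between mice was the widest of the 7 single-gene probe sets, with mouse 3 and mouse 4 0.87 log2 units or 1.83-fold apart. Mice 1 to 3 exceeded the background limit, and mouse 4 fell below it by 0.43, so the size of the gap to mouse 4 is uncertain. A second C1qb probe set lay under the limit in every mouse, at 4.71, 4.69, 4.22 and 4.85 (4.62 ± 0.27, SD, n = 4). It ordered the mice exactly in reverse, with mouse 4 highest and mouse 3 lowest. Among 2582 further probe sets of genes with more than 1, 3.14% reversed the order of the brightest one in this way. The 2 C1qb probe sets thus disagree, and what follows on C1qb rests on the brighter one.

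Serping1, the C1 inhibitor gene, was even across the mice, at 7.70, 7.53, 7.61 and 7.51, a mean of 7.59 ± 0.09 (SD, n = 4). Mouse 1 was highest and mouse 4 lowest, 0.19 log2 units or 1.14-fold apart, and the smallest margin over the background limit was 1.35.

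Cfb, the factor B gene, had 5.09, 5.12, 5.17 and 5.19 on its brighter probe set, a mean of 5.14 ± 0.04 (SD, n = 4). The second had 3.73, 3.65, 3.76 and 3.94, a mean of 3.77 ± 0.12 (SD, n = 4). Both were under the limit in all 4 mice, so an order of the mice has little meaning here, although mouse 4 was highest on both.

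The 2 probe sets annotated to C4a and C4b together cannot be assigned to C4b, the gene of the fourth component, as RefSeq lists C4a as a related transcribed pseudogene. The brighter one had 5.76, 5.50, 5.60 and 5.36 (5.56 ± 0.17, SD, n = 4), with mouse 1 highest and mouse 4 lowest. The other was flat at 2.33 to 2.37. Neither was above the background range.

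**Figure D1:**
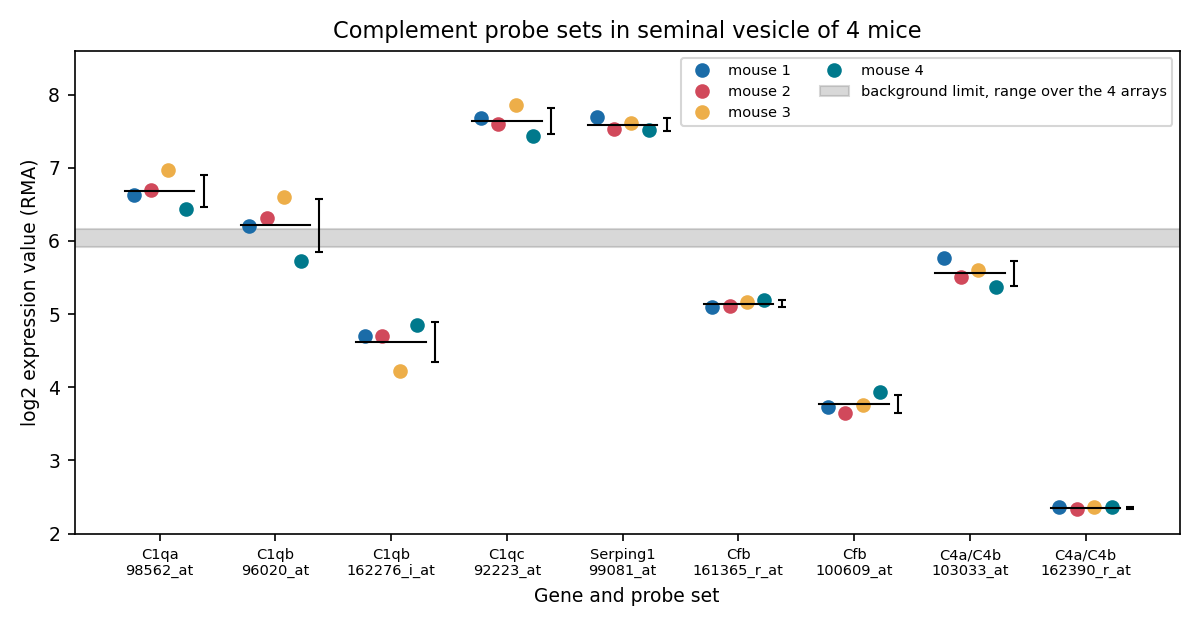
Log2 expression values of the 9 probe sets (x axis) in each of the 4 mice (coloured points), with the mean as a black line, the SD over 4 mice as a bar to its right and the range of the background limit over the 4 arrays in grey. C1qa, C1qc and Serping1 lie above the grey band in every mouse, C1qb on its brighter probe set in mice 1 to 3, and the Cfb and shared C4a and C4b probe sets lie below it.

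The spread between mice was tested with limma's variance model, in which each probe set's variance over the 4 mice is set against the variance expected at its signal. With 1 array per mouse, differences between animals and between arrays cannot be told apart. Of the 7 probe sets of these genes, 0 passed an adjusted p of 0.05, beside 0.282% of all 12422 probe sets. At an unadjusted p under 0.05 stood 2 of the 7, the C1qb pair with opposite orders, beside 5.44% of all probe sets. The adjusted p was 0.474 for the brighter C1qb probe set, 0.897 for the second, 0.962 for C1qa, 0.993 for C1qc, 0.995 for Serping1 and 0.998 for the brighter Cfb probe set (limma, Benjamini-Hochberg over 12422). The median SD of the 7 was 0.18, against 0.11 over all probe sets, and 5 of the 7 had an SD over that overall median. By SD, the brighter C1qb probe set stood at percentile 98.5 of all probe sets, C1qa at 91.3, C1qc at 83.5, Serping1 at 30.8 and the brighter Cfb probe set at 6.27. A p that misses the threshold does not show that the mice were alike: with 4 arrays the precision is limited.

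**Figure D2:**
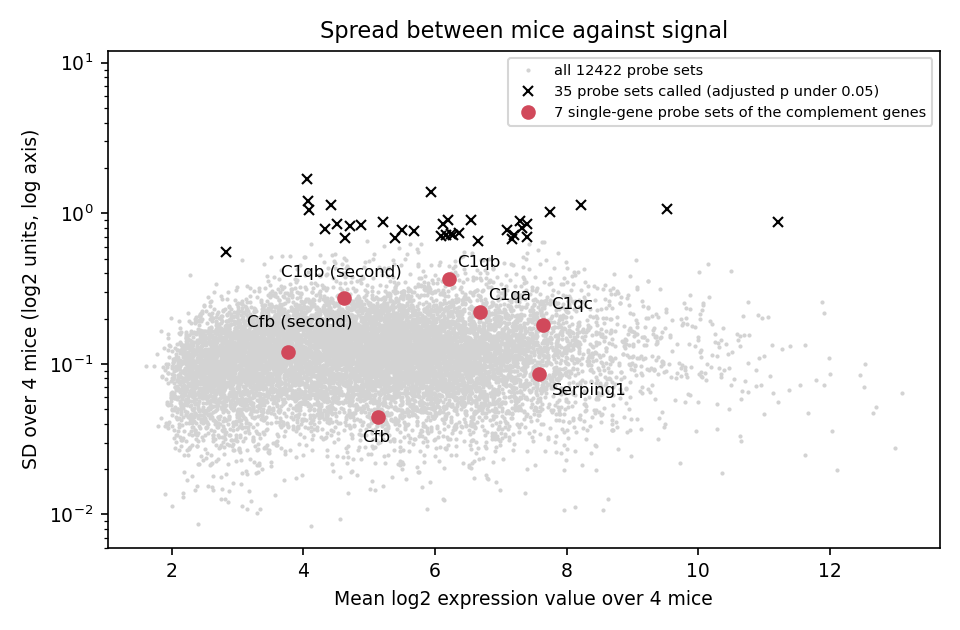
SD over the 4 mice (log axis) against the mean log2 value, for all 12422 probe sets (grey), the 35 called by limma's variance model (crosses) and the 7 single-gene probe sets of the complement genes (red). The C1q probe sets lie in the upper part of the cloud, Serping1 and Cfb in its middle or lower part, and none of them among the crosses.

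The 3 C1q genes ordered the extremes alike. Mean deviations of the chains from each gene's own 4-mouse mean were -0.01, 0.02, 0.30 and -0.32 in mice 1 to 4, a range of 0.61 log2 units or 1.53-fold. Mouse 3 had the highest and mouse 4 the lowest value for all 3 chains, an order of extremes that 7.61% of all genes and 7.06% of the 2477 genes above the background range also had. C1qa and C1qb shared the full order 3, 2, 1, 4, which 3.71% of genes had, and in C1qc mice 1 and 2 changed places. The difference between C1qc and C1qa within an array had an SD of 0.08 over the mice, smaller than the SD of either gene, and that between C1qb and C1qa one of 0.16. The difference between C1qc and C1qb had an SD of 0.21, larger than that of C1qc itself. None of these values is a test, since the chains are neither independent genes nor replicates of a mouse.

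How far the C1q range depends on mice 3 and 4 and on C1qb was examined in the same terms. Without mouse 3 it was 0.34 and without mouse 4 0.31, since these mice are its ends. With C1qa and C1qc alone it was 0.48, and mice 3 and 4 stayed at 0.25 and -0.23. With the second C1qb probe set in place of the brighter one the range was 0.11, at 0.02, 0.02, 0.04 and -0.08 in mice 1 to 4. The settings with C1qa and C1qc alone and with the second C1qb probe set were both added after seeing the data.

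Serping1 and Cfb did not share the order of the C1q genes. Serping1 deviated by 0.11, -0.06, 0.02 and -0.07 in mice 1 to 4, highest in mouse 1, and the brighter Cfb probe set by -0.05, -0.02, 0.03 and 0.05, highest in mouse 4. All of the 5 genes but Cfb were lowest in mouse 4, as were 20.6% of all genes.

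**Figure D3:**
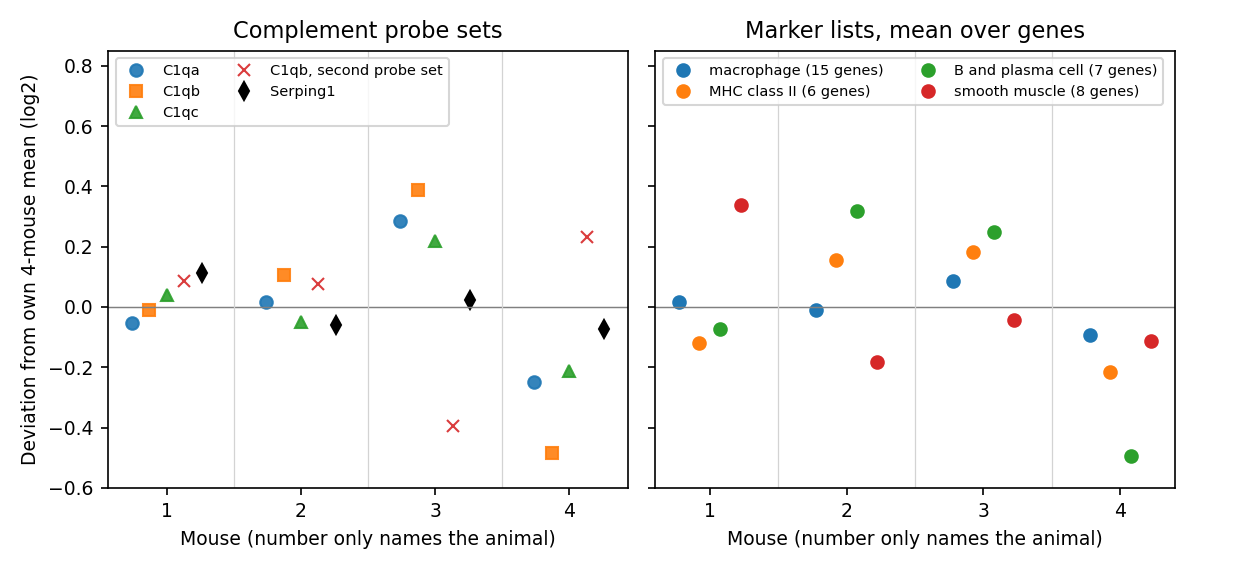
Deviation from the own 4-mouse mean in log2 units for each mouse, for complement probe sets (left) and for the mean over the genes of 4 marker lists (right). The C1q genes reach 0.22 to 0.39 in mouse 3 and -0.21 to -0.49 in mouse 4 while the second C1qb probe set runs the other way, and the B and plasma cell list has its lowest value, -0.50, in mouse 4.

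Genes of the cells that make C1q were set beside it. Of 15 measured macrophage markers 2 were above the background range, beside 30.0% of all genes. The defining markers Cd68 (4.91, 4.94, 4.79 and 4.69), Adgre1 (4.81, 4.94, 5.07 and 4.70) and Csf1r (5.26, 5.35, 5.56 and 5.39), the receptor for macrophage growth factor, were under that range in every mouse. Both genes above it were named after their values were seen. Cd14, the endotoxin co-receptor, was even at 6.62, 6.60, 6.67 and 6.69, and Mpeg1, a macrophage pore-forming protein, had 6.58, 6.57, 6.94 and 6.43. Mpeg1 thus had the extremes of the C1q genes, and Cd14 did not. Averaged over the 15 genes, the list deviated by 0.02, -0.01, 0.09 and -0.09, with a mean level of 4.79 to 4.97 per mouse. Of the 15, 3 had the extremes of the C1q genes, beside 7.61% of all genes: Mpeg1, Adgre1 and Ctss, the last at 5.99, 6.42, 6.44 and 5.78. In mouse 4, 7 of the 15 were lowest, beside 20.6% of all genes. Of the 3 with the C1q extremes, Mpeg1 alone was above the background range on all arrays, and Ctss exceeded the limit in 2 mice. Most of the 15 were not above it on all arrays, and under it an order of the mice has little meaning. Genes of MHC class II presentation, made by macrophages, dendritic cells and B cells, were above the range in 5 of 6 cases and deviated by -0.12, 0.15, 0.18 and -0.22, with a mean level of 7.29 to 7.69. Of these 6 genes 3 had the extremes of the C1q genes, beside the same 7.61% of all genes: Cd74, the invariant chain gene, and H2-Aa and H2-Ab1, which encode class II chains. In mouse 4, 4 of the 6 were lowest. H2-Aa had 7.90, 8.25, 8.29 and 7.70, so that mice 2 and 3 lay close together there, whereas C1q in mouse 2 was near its mean. Cd74, at 9.08, 9.47, 9.58 and 8.81, also had mice 2 and 3 close together. H2-Ab1 had 7.08, 7.26, 7.53 and 6.86, with mouse 2 near its mean of 7.18, as in C1q.

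Antibody genes were also lowest in mouse 4, and B cell surface genes were not. The B and plasma cell list deviated by -0.07, 0.32, 0.25 and -0.50 over 7 genes, with a mean level of 6.20 to 7.01 per mouse, 3 above the background range (Ighm, Igha and Xbp1), and 3 called by limma (Ighm, Igha and Jchain). Igha, the IgA heavy chain gene, was one of these, at 7.0, 7.96, 7.98 and 6.34 (adjusted p = 0.0242, limma). Over all probe sets 0.282% were called. These 3 calls depend on the set fitted: with only probe sets above the mean background limit, which keeps all 3, 0 were called. Of the 7 genes 3 were lowest in mouse 4, the same Ighm, Igha and Jchain, beside 20.6% of all genes. Cd79a, a B cell receptor component, was highest there (6.13, 5.84, 5.90 and 6.17), and Cd79b (4.93, 4.89, 5.12 and 5.0) and Ms4a1 (6.05, 6.22, 6.13 and 6.07) were near their means. The list was highest in mouse 2 and C1q in mouse 3. The part of macrophages, of class II positive cells and of B lineage cells in the C1q values was not tested. For beta-actin, a control for RNA quality, the 3′ value exceeded the 5′ value by 1.08, 0.82, 1.02 and 0.98 in mice 1 to 4, highest in mouse 1 and lowest in mouse 2. For Gapdh the same difference was -0.12, -0.15, -0.15 and -0.13, nearly equal at its lowest in mice 2 and 3, and highest in mouse 1. The part of RNA quality in the C1q values was not tested.

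The remaining marker lists describe the tissue the RNA came from. Signal above the background range was found for 30.0% of all genes. It was found for 6 of 6 secretory genes of the gland, 8 of 8 smooth muscle genes, 6 of 7 luminal epithelial genes and 6 of 10 fibroblast genes. It was found for 0 of 10 hepatocyte genes, though several of these also served to set the limit, for 0 of 8 neutrophil genes and for 1 of 11 adipocyte genes, Lep at 7.26, 7.21, 7.07 and 7.30, while the fat cell markers Adipoq (3.07 ± 0.24) and Fabp4 (3.91 ± 0.09, SD, n = 4 each) were under it. Smooth muscle genes deviated by 0.34, -0.18, -0.04 and -0.11, highest in mouse 1 as Serping1 was, and fibroblast genes by 0.09, -0.05, -0.05 and 0.02, also highest in mouse 1. The part of stromal cells in the Serping1 values was not tested.

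Of the rest of the complement system, 29 of 45 listed genes were measured and 3 were above the background range, C1ra, Clu and Cr1l. The share over all genes was 30.0%, and 10 of the 95 reference genes that set the limit were above it. None of the 29 was called by limma's variance model, beside 0.282% of all probe sets, and 0 stood at an unadjusted p under 0.05, beside 5.44%. At a share of 0.282%, 0 calls among 29 genes show nothing particular to complement. Their SDs ran from 0.03 to 0.23 with a median of 0.10.

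Among initiating and early components 1 of 7 was above the range. C1ra, encoding the protease C1r that C1 inhibitor blocks, had 7.62, 7.27, 7.46 and 7.48 (7.46 ± 0.15, SD, n = 4), highest in mouse 1 and lowest in mouse 2. Its probe set is one that Affymetrix marks as reading a gene family, so close relatives may contribute. C2, the classical pathway counterpart of Cfb, had 5.27, 5.22, 5.07 and 5.28 and was under the limit, as Cfb was. The lectin pathway genes Mbl1, Mbl2, Masp1, Masp2 and Fcna were also under it.

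Terminal components, which build the membrane attack complex, were above the range in 0 of 3 cases. Hc, the mouse gene of C5, had 3.66, 3.64, 3.56 and 3.92, and C8g had 4.79, 4.66, 4.71 and 4.80. Both were flat across mice apart from mouse 4 in Hc.

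Regulators in solution were above it in 1 of 6 cases. Clu, which encodes clusterin, a chaperone that also restrains the attack complex, had 7.69, 8.01, 7.88 and 7.81 (7.85 ± 0.14, SD, n = 4), highest in mouse 2. Cfhr2, a factor H related gene, had 2.72, 2.79, 2.87 and 3.21. Cfi, the factor I protease gene, had 3.47, 3.13, 3.30 and 3.36, and both were under the limit.

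Membrane regulators, which protect host cells, were above the range in 1 of 5 cases. Cr1l, the rodent regulator Crry, had 7.67, 7.61, 7.46 and 7.48 (7.56 ± 0.10, SD, n = 4), with mice 1 and 2 above mice 3 and 4. Cd55 (2.41 ± 0.13) and Cd46 (2.54 ± 0.04, SD, n = 4 each) were under the limit.

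Receptors for complement fragments were above it in 0 of 8 cases, with C3ar1, the C3a receptor gene, at 4.07, 3.93, 3.92 and 3.82 and Cr2, a B cell receptor for C3 fragments, at 2.27, 2.16, 2.33 and 2.14. The C1q, C1r and C1 inhibitor genes, together with clusterin and Crry, were therefore the measured complement genes with signal above the limit on all arrays, C1qb being short of it in mouse 4.

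**Figure D4:**
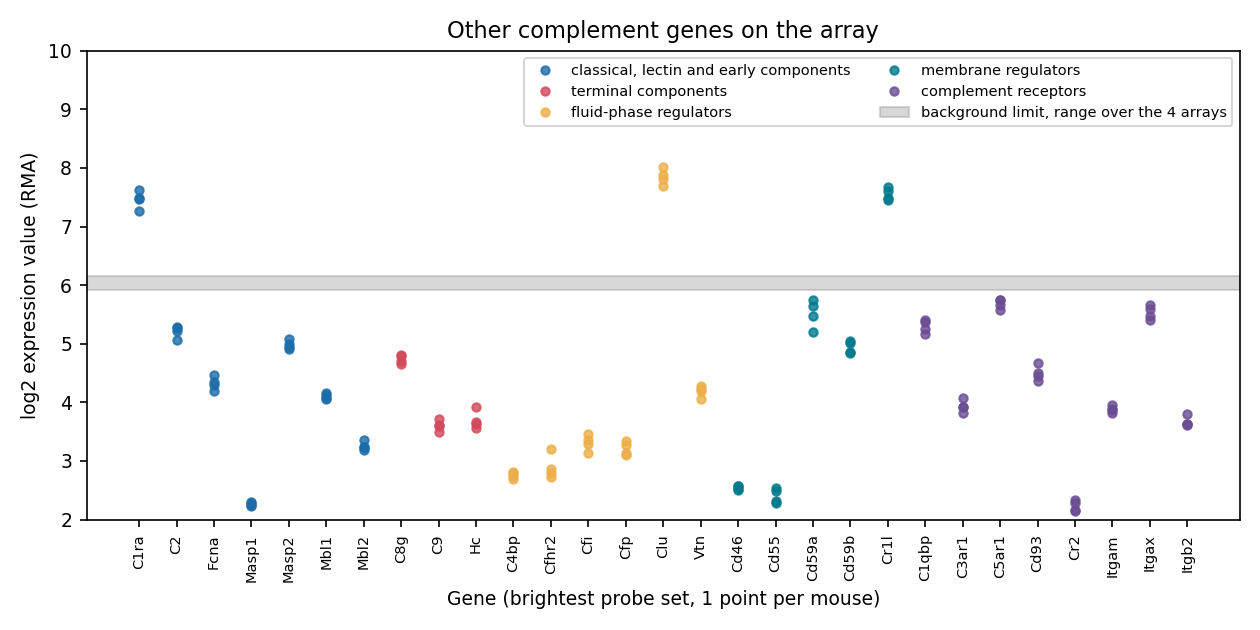
Log2 expression values of 29 other complement genes (x axis, grouped by role), with 1 point per mouse and the range of the background limit in grey. C1ra, Clu and Cr1l lie above the band in every mouse and all other genes below it.

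Inducible genes were counted as well, since interferon and acute inflammation raise C3, C4 and factor B in many tissues. Of 18 measured, 2 were above the background range, Hp, the haptoglobin gene, and Nfkbia, the inhibitor of NF-kB, beside 30.0% of all genes. By limma 0 were called, with 1 at an unadjusted p under 0.05, beside 0.282% and 5.44% of all probe sets. The list deviated by 0.03, 0.01, 0.06 and -0.11 in mice 1 to 4. Of its 18 genes 4 shared the extremes of the C1q genes, beside 7.61% of all genes, and 11 were lowest in mouse 4, beside 20.6%. Most of the 18 were not above the limit on all arrays, and under it an order of the mice has little meaning. Of the 2 above it, Nfkbia shared these extremes and Hp was highest in mouse 4. The mean deviations of these 2 were 0.03, -0.03, 0.01 and -0.005. The gene at the unadjusted threshold, Psmb8, an immunoproteasome subunit named after its values were seen, had 5.54, 5.73, 6.04 and 4.87 and so shared the full order of C1qa, above the limit in mouse 3 alone (adjusted p = 0.189, limma). Irf1 (6.22 ± 0.08) and Irf7 (5.96 ± 0.11, SD, n = 4 each), interferon regulatory factors, did not exceed the limit on all arrays. Of 6 other serpin genes 2 were above, Serpina3n at 7.33, 7.08, 7.24 and 7.15 and Serpinh1 at 6.69, 6.31, 6.67 and 6.39. Both had mouse 1 highest and mouse 2 lowest, whereas Serping1 was lowest in mouse 4.

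The genes of most similar pattern were found as the smallest root mean square difference of the 4 deviations, among 2474 other genes above the background range. For the mean of the C1q genes these were Gstm2, a glutathione transferase gene (8.30, 8.20, 8.54 and 7.91, difference 0.045), Cavin1, a caveolar coat gene (6.63, 6.55, 6.88 and 6.35, difference 0.056), and Ccnd1, the cyclin D1 gene (8.53, 8.62, 8.91 and 8.16, difference 0.057). The chains themselves lay 0.041, 0.105 and 0.078 from their mean for C1qa, C1qb and C1qc, so Gstm2, Cavin1 and Ccnd1 came nearer to it than C1qb and C1qc did. Of the macrophage and class II genes above the range, Mpeg1, Cd74, H2-Aa and H2-Ab1 also had the extremes of the C1q genes. Cd14, H2-Eb1 and H2-DMa did not. A link of the C1q pattern with any of these genes was not tested. For Serping1 the nearest were Galnt10, Hspa1b and Immt, with differences of 0.0036, 0.0040 and 0.0096, and for Cfb they were Csnk1g2, Abca2 and Wdr81, with 0.0073, 0.0089 and 0.0104. With 4 mice such matches are frequent among so many genes.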

How the data were processed

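Total RNA of 4 seminal vesicles was labelled with biotin and hybridised to 1 array each, per the labels' protocols. The deposited values are log2 expression values, made by the authors with RMA per the submitters' processing notes; its version is not given in the sources used here. The log2 scale was read from the values, 1.47 to 13.2. RMA sets arrays to a common distribution and shrinks differences of dim probe sets. Array medians were 4.95 to 4.98, and Pearson's r across probe sets was 0.992 to 0.994 for the 6 pairs.

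The 66 control probe sets were left out. Names came from the platform annotation and were updated by gene ID in RefSeq's GRCm38.p6 table (10817 of 10833 single-gene probe sets matched). The probe set with the highest mean stands for its gene unless said otherwise. Variances over 4 arrays (3 degrees of freedom) were tested by F against limma's robust prior with signal trend (8.06 degrees of freedom), with Benjamini-Hochberg adjustment. P-values cover the spread between these samples only. The test was tested on simulated data.

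The members and lists were chosen with earlier results of these data known. Named were all member probe sets, the first 2 measured genes of each pathway list and up to 4 above the limit, marker genes on which a result turns, and the 3 nearest genes per profile. Alternatives covered scaling, mice, prior, filters, limits and probe sets. R 4.3.3, limma 3.58.1, Python 3.11.15 and matplotlib 3.10.9 were used.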

Additional observations from a re-analysis of the deposited data

Results flagged for a closer look

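In 3 of 86 items examined, 1 mouse stood apart from the other 3, by a gap to the nearest of the others that exceeded Dixon's critical value for 4 samples as a share of the whole range, and none of the 3 is a complement gene. Chance gives about 1 such item in 20. The hepatocyte gene Ttr had 3.56, 3.56, 3.60 and 3.29 in mice 1 to 4, a gap of 0.868 of the range, under the background limit throughout. Col3a1, a collagen gene, had 5.79, 5.79, 5.78 and 5.91, a gap of 0.913, and was also under the background limit in every mouse. The mean deviation of the 6 secretory genes of the gland was -0.02, 0.10, -0.04 and -0.04, a gap of 0.865.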

How the results depend on the processing

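No member was called under any of the 11 alternatives run (limma), with adjusted p for the members from 0.317 upward over 59 fits, main ones included. The number of members above the background range, 3, was 2 at the 95th and 4 at the 75th percentile, 5 with each array's median, and 3 to 4 when 1 mouse was left out, 4 without mouse 4. The C1q range of 0.61 became 0.11 with the second C1qb probe set, an alternative added after seeing the data, 0.36 when each gene's probe sets were averaged, and 0.31 to 0.61 when 1 mouse was left out. The 35 probe sets called in all became 15 with a non-robust prior fit, 0 when probe sets under the background limit on average were dropped (187 of 3420 at an unadjusted p under 0.05), 1 when those under the median signal were dropped, and 17 to 44 when 1 mouse was left out (17 without mouse 4, 23 without mouse 2). Where fewer mice or probe sets do not account for a change by construction, the cause was not tested. Signal over background limits what can be said of Cfb, of C1qb in mouse 4 and of the second C1qb probe set.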
